A study of Mus musculus with 18 samples.

Results

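Transcript levels of 10 enzymes that modify and crosslink collagen were examined in cultured mouse mammary fibroblasts. They are the lysyl oxidases Lox, Loxl1, Loxl2, Loxl3 and Loxl4, the lysyl hydroxylases Plod1, Plod2 and Plod3, and the prolyl 4-hydroxylase alpha subunits P4ha1 and P4ha2. Members were the rows of the count table that carry these gene symbols. The rule uses no measured value, but the set was chosen with earlier results of these data known. They make up 10 of 55486 genes in the table, and all 10 were among the 14273 genes that passed the filter on low counts. The cells were primary normal fibroblasts (NFs) from the FVB/n mammary gland, sorted without EpCAM, CD49f, CD45 and CD31 and split by the surface peptidase CD26. Per the methods of the study, the glands came from adult females without WapCre, with floxed alleles or the mTmG reporter, cells of several mice were pooled for a sort, and sorted cells were grown on collagen type I. CD26- and CD26+ NFs were kept for 7 days in control medium (n = 3 each) or in conditioned medium (CM, n = 6 each) of tumor cells from a WapCre-driven mouse model of invasive lobular carcinoma. The CM came from 6 independent tumor lines, each used on 1 CD26- and 1 CD26+ culture. The labels do not say whether the 3 control libraries of a cell type are separate cultures, so p-values measure only the spread between these samples, which may be technical in the control groups. Because CD26 declines in these cells in culture, per the study, the names CD26- and CD26+ refer to the sort and not to the cells at harvest.

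Collagen chains are modified in the endoplasmic reticulum before they fold. Prolyl 4-hydroxylases, which are tetramers of an alpha subunit (P4ha1 or P4ha2) and the shared beta subunit P4hb, hydroxylate proline and so stabilize the triple helix. Lysyl hydroxylases act on lysine: Plod1 mainly in the helix, Plod2 in the telopeptides, and Plod3 also glycosylates hydroxylysine. After secretion, the copper enzymes of the lysyl oxidase family oxidize lysine and hydroxylysine, which starts the covalent crosslinks of collagen and elastin fibers. These crosslinks stiffen the matrix, and the enzymes are much studied in breast tumor stroma.

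Total counts ran from 9725723 to 14585349 over the 18 libraries. All 10 fibroblast markers had counts in every library. Their summed level was 16530 to 18500 CPM (counts per 1000000 of the TMM-scaled library) in CD26- control libraries and 62530 to 79510 CPM in CD26+ control libraries. The sum was mostly Col1a1, Col1a2 and Col3a1, at means of 7018, 4749 and 2843 CPM in CD26- control libraries, where Fap was at 6.88 CPM. Epithelial transcripts were also present although the sort removed EpCAM and CD49f. Of 16 epithelial markers, 14 were lower in CD26+ NFs in both media, and their summed level was 5292 to 5958 CPM in CD26- control, 3480 to 5666 CPM in CD26- CM, 838 to 1554 CPM in CD26+ control and 784 to 1895 CPM in CD26+ CM libraries. Epcam had 1727 to 3332 counts in each CD26- library and 396 to 1066 in each CD26+ library, and no epithelial marker was at 0 in a group. Endothelial markers summed to at most 14.2 CPM and immune cell markers to at most 30.04 CPM in any library.

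The upstream sequences of the members that differed most between the cell types and had an entry free of annotated exons are shown first. RefSeq promoters on GRCm38.p6 were held for 5 of the 10 members (Loxl4, Plod1, Plod3, P4ha1 and P4ha2), and the 250 bases before the start were read for each. Capitals mark ACGTG or GCGTG on either strand, the core letters of the motif bound by hypoxia-inducible factors, which are regulators known to act on many collagen hydroxylase genes. The windows are P4ha1 at chr10:59323046-59323295 (plus strand), P4ha2 at chr11:54100674-54100923 (plus strand) and Plod1 at chr4:147936777-147937026 (minus strand), each given 5′ to 3′ on the strand of its gene.
P4ha1: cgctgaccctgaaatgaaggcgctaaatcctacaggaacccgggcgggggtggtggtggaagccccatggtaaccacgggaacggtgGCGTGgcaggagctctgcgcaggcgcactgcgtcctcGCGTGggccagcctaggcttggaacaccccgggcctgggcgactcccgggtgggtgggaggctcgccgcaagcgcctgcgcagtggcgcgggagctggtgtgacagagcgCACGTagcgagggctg
P4ha2: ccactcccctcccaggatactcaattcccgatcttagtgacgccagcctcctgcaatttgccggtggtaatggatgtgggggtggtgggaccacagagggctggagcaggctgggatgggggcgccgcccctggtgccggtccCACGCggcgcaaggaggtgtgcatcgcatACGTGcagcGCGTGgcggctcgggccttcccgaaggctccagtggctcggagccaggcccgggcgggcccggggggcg
Plod1: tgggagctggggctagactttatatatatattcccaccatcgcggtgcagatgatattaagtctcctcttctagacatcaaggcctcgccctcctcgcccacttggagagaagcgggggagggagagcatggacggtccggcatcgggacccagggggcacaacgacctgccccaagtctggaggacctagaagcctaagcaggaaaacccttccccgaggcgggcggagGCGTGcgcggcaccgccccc
P4ha1 and P4ha2 each held 1 ACGTG and 2 GCGTG matches, and Plod1 and Loxl4 each held 1 GCGTG match. Plod3 held 1 ACGTG and 3 GCGTG matches. Among 32851 RefSeq promoter windows of the same length, 16.6% held ACGTG, 28.2% held GCGTG and 38.6% held either, and no matches overlapped in the members. A match describes letters in the window and shows no binding. The P4ha2 window lies before the start that RefSeq lists but inside the annotated span of the gene, which begins further upstream. Loxl4 and Plod3 windows overlap annotated exons and are not printed.

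Per kilobase of exon sequence, Lox was the most abundant member in all 4 groups. In CD26- control NFs, Lox reached 793 ± 22.5 CPM per kb (SD, n = 3), followed by Loxl2 at 98.4 ± 5.38, P4ha1 at 79.7 ± 2.75 and Plod3 at 71.6 ± 1.98 CPM per kb. Loxl1 at 56.5 ± 8.35 and Loxl3 at 56.5 ± 1.44 CPM per kb did not differ beyond their spread. Plod2 at 44.9, P4ha2 at 31.6, Plod1 at 21.5 and Loxl4 at 16.7 CPM per kb closed the order. In CD26+ control NFs, Lox reached 1471 ± 73.6 CPM per kb. P4ha1 at 158 ± 12.9, Loxl2 at 141 ± 10.3, Plod3 at 133 ± 9.15 and Loxl1 at 131 ± 4.45 CPM per kb came next, neighbors that were within their spread of each other. P4ha2 followed at 108 CPM per kb, ahead of Loxl3 at 68.9, Plod1 at 51.9, Plod2 at 37.6 and Loxl4 at 25.7 CPM per kb. The place of P4ha2 depended on the length used. With its longest transcript (3060 bases) in place of the sum of its exons (6239 bases), it reached 220 CPM per kb in CD26+ control NFs and ranked second instead of sixth, whereas Lox stayed first and Loxl4 last in all 4 groups. Together the members held 0.636% ± 0.00935 of all counts in CD26- control, 0.466% ± 0.128 in CD26- CM, 1.05% ± 0.0279 in CD26+ control and 0.902% ± 0.173 in CD26+ CM libraries. Lox alone made up 48.0% to 65.7% of the members' counts in a library and ranked between place 7 and place 46 among all genes by count. Exons of genes on the opposite strand overlap 11.7% of the Plod3 exon bases (Znhit1) and 11.6% of the Loxl3 exon bases (Htra2), and at most 6.42% in any other member. Whether reads were counted by strand is not given in the sources used here, so Plod3 and Loxl3 levels may hold reads of these neighbors.

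The first comparison asked how the cell types differed without tumor factors. In control medium, 8 of 10 members were higher in CD26+ than in CD26- NFs and none was lower, at a false discovery rate (FDR, the Benjamini-Hochberg adjusted p of edgeR over all tested genes) under 0.05. Over all tested genes, 25% were higher and 25.4% were lower in CD26+ NFs. The median log2 fold change was 0.89 over the members and 0.01 over all tested genes. P4ha2 had the largest difference. No member was lower at an unadjusted p under 0.05 either, and DESeq2 and limma voom also called 8 higher and none lower. A fit of the 6 control libraries alone, where the spread of the CM libraries does not enter, called all 10, adding Loxl2 as higher (FDR 2.26e-05) and Plod2 as lower (log2 fold change -0.26, FDR 0.00117), and it called 59.8% of all genes tested in it against 50.3% in the fit of all groups. A higher level in bulk RNA can come from more cells of a type or from more RNA per cell, which these libraries cannot separate.

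Among the lysyl oxidases, Lox, the founding member of the family and an enzyme of collagen and elastin crosslinking, had 3809, 3888 and 3675 CPM in CD26- control libraries and 6803, 7433 and 6848 CPM in CD26+ control libraries. The groups were well apart, and the fitted log2 fold change was 0.89 (SE 0.31, FDR 0.0235), a 1.85-fold difference. The adjusted p of this fit carries the spread of Lox between the CM libraries as well. It rose above 0.05 (0.0517 to 0.0625), and Lox was not called, when any CD26- control library or CD26+ control replicate 11 was left out. Loxl1, which is tied to elastin fiber assembly, had 197, 207 and 155 CPM in CD26- against 420, 449 and 428 CPM in CD26+ control libraries, 2.32-fold higher (log2 fold change 1.21, SE 0.12, FDR 2.45e-07). Loxl4, the least abundant member, had 73.1, 70.7 and 67.2 CPM against 110, 107 and 107 CPM (log2 fold change 0.62, SE 0.13, FDR 0.000619). All CD26+ values lay above all CD26- values for each of these genes. Loxl3 differed least among the called members, with 266, 260 and 253 CPM against 306, 319 and 326 CPM (log2 fold change 0.29, SE 0.09, FDR 0.0149). A difference of that size was also seen among 10 housekeeping genes, of which 4 were higher and 6 lower in CD26+ NFs with a median log2 fold change of -0.27. Loxl2, which oxidizes collagen IV among other substrates, had 504, 529 and 562 CPM against 699, 771 and 809 CPM. Its log2 fold change of 0.51 did not pass the test (SE 0.24, 95% interval 0.01 to 1.02, FDR 0.084) although the libraries did not overlap, and it passed without CD26- CM replicate 9 (FDR 0.0405).

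Among the lysyl hydroxylases, Plod1 had 143, 150 and 144 CPM in CD26- and 318, 377 and 359 CPM in CD26+ control libraries. It was 2.42-fold higher in CD26+ NFs (log2 fold change 1.27, SE 0.14, FDR 1.09e-06), with no overlap. Plod3 had 324, 333 and 315 CPM against 558, 640 and 600 CPM and was 1.85-fold higher (log2 fold change 0.89, SE 0.17, FDR 0.000262). Plod2 went the other way in its values, with 234, 234 and 258 CPM in CD26- and 192, 207 and 209 CPM in CD26+ control libraries. Its log2 fold change of -0.26 did not pass the test (SE 0.14, 95% interval -0.55 to 0.03, FDR 0.132). The ratio of Plod2 to Plod1 counts within a library was therefore 1.67 ± 0.117 in CD26- control and 0.579 ± 0.0286 in CD26+ control NFs.

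Both prolyl 4-hydroxylase alpha subunits were higher in CD26+ NFs. P4ha1, the main alpha subunit of most cells, had 320, 322 and 341 CPM in CD26- and 593, 699 and 656 CPM in CD26+ control libraries, 1.98-fold higher (log2 fold change 0.99, SE 0.13, FDR 5.35e-06). P4ha2 had 192, 197 and 202 CPM against 610, 728 and 677 CPM, 3.41-fold higher (log2 fold change 1.77, SE 0.23, FDR 7.68e-06). The ratio of P4ha2 to P4ha1 counts was 0.593 to 0.612 in the CD26- and 1.03 to 1.04 in the CD26+ control libraries, without overlap.

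**Figure D1:**
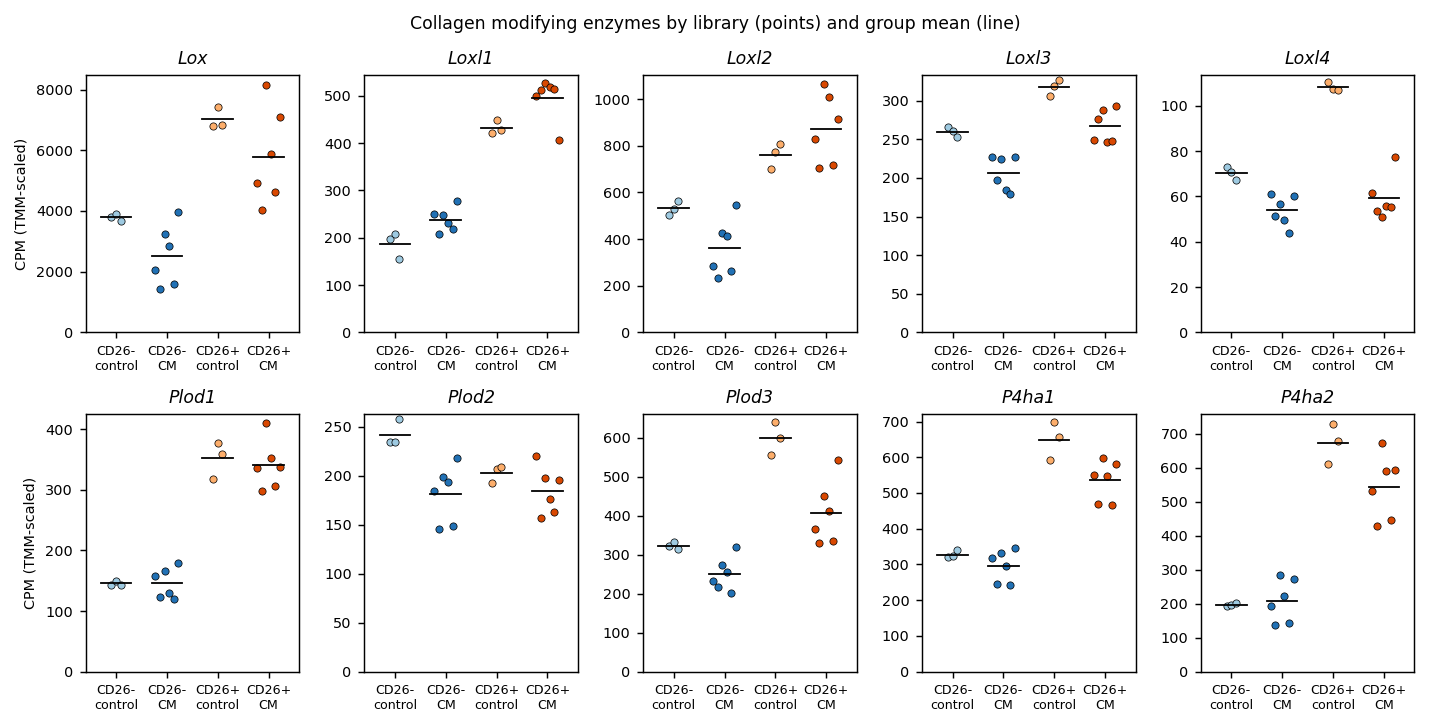
TMM-scaled CPM (vertical axis, from 0, a separate scale for each gene) of the 10 enzymes in each library (points) of the 4 groups (horizontal axis), with a line at each group mean. Lox control libraries sit at 3675 to 3888 CPM in CD26- and 6803 to 7433 CPM in CD26+ NFs, and the CM libraries spread more widely than the controls for most members.

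In tumor CM the number of called members was the same. Again 8 of 10 were higher in CD26+ NFs and none was lower, where 29.3% of all tested genes were higher and 29.3% were lower. No member was lower at an unadjusted p under 0.05, by DESeq2 or by limma voom. Loxl2 was now called, with 234 to 547 CPM (median 347) in CD26- CM and 707 to 1064 CPM (median 872) in CD26+ CM libraries, 2.42-fold higher (log2 fold change 1.28, SE 0.17, FDR 5.78e-06). Lox had 1442 to 3962 CPM (median 2439) in CD26- CM and 4039 to 8158 CPM (median 5398) in CD26+ CM libraries, so the lowest CD26+ library lay just above the highest CD26- library (log2 fold change 1.20, SE 0.22, FDR 0.000156). P4ha2 kept the largest difference, with 137 to 285 CPM (median 207) against 428 to 674 CPM (median 561), 2.60-fold higher (log2 fold change 1.38, SE 0.16, FDR 1.41e-06). Plod1 was 2.33-fold, Loxl1 2.08-fold, P4ha1 1.81-fold, Plod3 1.62-fold and Loxl3 1.29-fold higher, with FDR from 1.04e-08 to 0.000108. Loxl4, called in control medium, had 44.0 to 60.9 CPM against 50.7 to 77.5 CPM, and its log2 fold change of 0.13 did not pass (95% interval -0.06 to 0.33, FDR 0.225). Plod2 levels overlapped almost fully at 145 to 218 CPM against 157 to 220 CPM (log2 fold change 0.03, 95% interval -0.18 to 0.23, FDR 0.838).

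No member reached the additional limit of the study, a log2 fold change over 2 or under -2, in any comparison, since the largest absolute value was 1.77. At that limit 5.97% of tested genes were called between the cell types in control medium and 4.16% in CM. The epithelial markers moved with both cell type comparisons. With the mean log2 CPM of these markers as a covariate, 2 members (Loxl1 and Plod1) were higher in CD26+ NFs in each medium instead of 8, while the calls over all tested genes went from 50.3% to 5.18% in control medium and from 58.6% to 6.07% in CM. P4ha2 then had a log2 fold change of 1.54 (FDR 0.0607) in control medium and 1.17 (FDR 0.0798) in CM. Loxl3 in control medium turned to -0.12. Over all alternative fits, the covariate fit among them, the lowest log2 fold change in CM was 1.00 for Lox, 1.18 for Loxl2 and 0.0045 for Loxl3. The 4 groups explain 89.3% of the spread of that covariate, so the cell type and the level of epithelial transcripts cannot be told apart here. Pericyte and smooth muscle markers moved too. In control medium 5 of 9 tested were lower in CD26+ NFs and 1 was higher. The CM libraries had 4 lower and 1 higher. Their summed level was 353 to 387 CPM in CD26- control, 147 to 376 CPM in CD26- CM, 198 to 219 CPM in CD26+ control and 92.4 to 197 CPM in CD26+ CM libraries, and none of the 10 was at 0 in all libraries of a group. The other marker lists moved as well. Skeletal muscle markers were lower in CD26+ NFs in 1 of 8 tested in control medium and in 8 of 8 in CM, with sums of 49.3 to 145 CPM in CD26- and 6.75 to 20.1 CPM in CD26+ libraries. Adipocyte markers were higher in 3 of 5 in both media, with 1 lower in CM, and summed to 31.1 to 49.0 CPM in CD26- and 42.8 to 108 CPM in CD26+ libraries. Endothelial markers were lower in 3 of 6 in control medium and 2 of 6 in CM, and immune cell markers in 1 of 3 in each. The part of these lists in the cell type results was not tested.

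**Figure D2:**
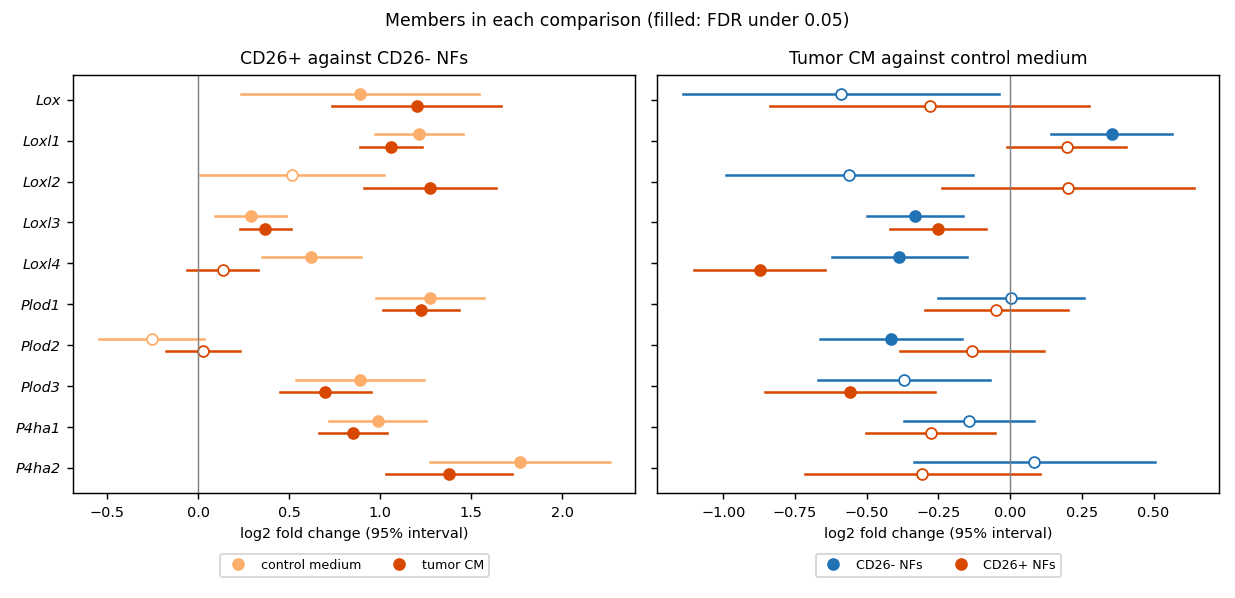
Log2 fold changes (horizontal axis) of the 10 enzymes with 95% intervals, for CD26+ against CD26- NFs (left) and for tumor CM against control medium (right). Filled points passed an FDR under 0.05. P4ha2 lies farthest to the right at 1.77 between the cell types in control medium, and Loxl4 farthest to the left at -0.87 for CM in CD26+ NFs.

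The next comparisons asked what tumor CM did within a cell type. In CD26- NFs, 1 member rose (Loxl1) and 3 fell (Loxl3, Loxl4 and Plod2), where 7.88% of all tested genes rose and 7.28% fell. The median log2 fold change was -0.35 over the members and 0.01 over all tested genes. Loxl1 had 207 to 277 CPM (median 239) in CM against 155 to 207 CPM in control medium, 1.28-fold higher (log2 fold change 0.35, SE 0.10, FDR 0.0246), and 1 CM library fell just below the highest control. Loxl3 had 180 to 227 CPM (median 211) in CM, all below the control libraries (log2 fold change -0.33, SE 0.08, FDR 0.00999). Loxl4 had 44.0 to 60.9 CPM (median 54.0), also all below the controls (log2 fold change -0.39, SE 0.11, FDR 0.0273). Plod2, the telopeptide lysyl hydroxylase, had 145 to 218 CPM (median 189) in CM against 234 to 258 CPM in control medium (log2 fold change -0.41, SE 0.12, FDR 0.0247).

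The other members did not pass in CD26- NFs. Lox had 1442 to 3962 CPM in CM, a range that reached from well below to above the control libraries, and its log2 fold change was -0.59 (SE 0.26, 95% interval -1.14 to -0.04, FDR 0.136). Loxl2 behaved alike in its values at -0.56 (SE 0.20, FDR 0.0718), with 234 to 547 CPM against 504 to 562 CPM, and DESeq2 called it (FDR 0.0476). Plod3 had 203 to 319 CPM (median 245) in CM, and 1 CM library lay within the control range (log2 fold change -0.37, SE 0.14, FDR 0.0887). P4ha1 (-0.14, 95% interval -0.37 to 0.08), Plod1 (0.00, -0.25 to 0.26) and P4ha2 (0.08, -0.34 to 0.50) had log2 fold changes whose intervals span 0.

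In CD26+ NFs, 3 members fell in CM and none rose, where 13.4% of all tested genes fell and 15.2% rose. No member was higher at an unadjusted p under 0.05, by DESeq2 or by limma voom. Loxl4 fell most. It had 107 to 110 CPM in the control libraries and 50.7 to 77.5 CPM (median 55.7) in CM, and its log2 fold change was -0.87 (SE 0.11, FDR 1.82e-05), so that the CM level was 0.546 of the control level. Plod3 had 331 to 544 CPM (median 390) in CM, all below the 558 to 640 CPM of the controls (log2 fold change -0.56, SE 0.14, FDR 0.00687). Loxl3 had 247 to 293 CPM (median 262), all below the 306 to 326 CPM of the controls (log2 fold change -0.25, SE 0.08, FDR 0.0246). P4ha1 missed the threshold with 466 to 599 CPM (median 549) against 593 to 699 CPM (log2 fold change -0.28, SE 0.11, FDR 0.061), and passed it with upper-quartile scaling (FDR 0.0311), DESeq2 (FDR 0.0498), the epithelial covariate (FDR 0.0487) and a fit of the CD26+ libraries alone (FDR 0.0441). Lox spanned 4039 to 8158 CPM around its controls (log2 fold change -0.28, 95% interval -0.84 to 0.28, FDR 0.463), and P4ha2 had 428 to 674 CPM (log2 fold change -0.31, 95% interval -0.71 to 0.10, FDR 0.259). Loxl1 (0.20, -0.01 to 0.41), Loxl2 (0.20, -0.24 to 0.64), Plod1 (-0.05, -0.30 to 0.20) and Plod2 (-0.13, -0.38 to 0.12) also did not pass.

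These calls depended on how the CM lines were treated. With the line as a block, which compares the controls with the mean over these 6 lines, 8 members passed in CD26- NFs (1 higher, 7 lower) and 6 in CD26+ NFs (all lower). The calls over all tested genes went up as well in this fit, from 15.2% to 26.5% in CD26- NFs and from 28.6% to 36.6% in CD26+ NFs. In CD26- NFs the block added Lox (log2 fold change -0.68, FDR 6.67e-05), Loxl2 (-0.62, FDR 0.000452), Plod3 (-0.39, FDR 2.82e-05) and P4ha1 (-0.16, FDR 0.0382). In CD26+ NFs it added Lox (-0.32, FDR 0.0119), P4ha1 (-0.28, FDR 0.000538) and P4ha2 (-0.32, FDR 0.00419). Without the block, leaving out CD26- control replicate 1 or 3 left 1 call in CD26- NFs (Loxl3) and leaving out control replicate 2 left 2 (Loxl1 and Loxl3). The calls over all genes went down too, from 15.2% to 7.57%, 5.69% and 9.64% without control replicate 1, 3 and 2. Loxl1 passed neither without control replicate 1 (FDR 0.0504) nor without control replicate 3 (FDR 0.181), nor with the epithelial covariate (FDR 0.053). Plod2 did not pass without any one of the 3 controls (FDR 0.0554 to 0.127), and Loxl4 did not pass without any one of them or without CM replicate 5 or 8 (FDR 0.0524 to 0.104). Leaving out CM replicate 9 gave 7 calls, beside 17.2% of all genes, adding Lox (FDR 0.0374), Loxl2 (FDR 0.0111) and Plod3 (FDR 0.0297). In CD26+ NFs, 5 members passed without CM replicate 18, beside 34.9% of all genes, with Loxl1 (FDR 0.0395) and P4ha1 (FDR 0.0385) added, and Loxl3 did not pass without control replicate 11 (FDR 0.0594) or 12 (FDR 0.0786). P4ha1 also passed without CM replicate 15 (FDR 0.0379) and, through the shared spread, without CD26- CM replicate 5, 8 or 9 (FDR 0.0441 to 0.0496), and Plod3 passed in CD26- NFs without CD26+ CM replicate 18 (FDR 0.0418). At the log2 limit of 2, 0.904% of tested genes were called for CM in CD26- NFs and 2.01% in CD26+ NFs. Skeletal muscle markers moved with CM in CD26- NFs. Of 8 tested, 7 rose, and the median log2 fold change of the 8 was 3.80. The sum of the list was 53.1 to 145 CPM in CM against 49.3 to 76.7 CPM in control libraries. The control sum was mostly Acta1, at 699 to 796 counts, which had 526 to 880 counts in CM libraries. Myod1 had 7 to 62 counts in each CM library and at most 1 in each control library. In CD26+ NFs the sum of the list was at most 20.1 CPM. Among 9 pericyte and smooth muscle markers, 1 was higher and 2 were lower in CM in CD26- NFs, while CD26+ NFs had 1 higher and 1 lower in CM. Fibroblast markers had 4 of 10 higher and 2 lower in CM in CD26- NFs and 3 higher and 5 lower in CD26+ NFs, where their sum was 29200 to 52140 CPM in CM against 62530 to 79510 CPM in control libraries. Of 6 endothelial markers 2 were higher in CM in each cell type, and of 16 epithelial markers 1 was lower in each. Adipocyte markers had 1 of 5 higher and 1 lower in CM in CD26+ NFs. The part of these lists in the CM results was not tested.

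Whether CM acted differently on the cell types was tested by the difference between the CM effects, which share no libraries. No member passed the FDR with edgeR, where 4.53% of all tested genes had a positive and 3.01% a negative difference past the FDR and 0.392% also passed the log2 limit of 2. At an unadjusted p under 0.05 there were 2 members, beside 3603 of 14273 genes. DESeq2 and limma voom each called 1 member (Loxl4, FDR 0.0376 and 0.0491), beside 11.1% and 9.37% of all genes. The closest were Loxl4, whose fall was larger in CD26+ NFs (difference -0.49 on the log2 scale, SE 0.16, 95% interval -0.82 to -0.15, FDR 0.0659), and Loxl2 (0.76, SE 0.29, 95% interval 0.14 to 1.38, FDR 0.113). With the line as a block 4 members passed, namely Loxl2 (0.81, FDR 0.00283), Loxl4 (-0.49, FDR 0.00473), Plod2 (0.29, FDR 0.0382) and P4ha2 (-0.35, FDR 0.041), while the calls over all tested genes went from 7.53% to 17.6%. Loxl4 alone passed without CD26- CM replicate 8 (FDR 0.0431) or CD26+ CM replicate 18 (FDR 0.00342), and Loxl2 alone without CD26- CM replicate 9 (FDR 0.0334). Without the block, the 95% interval was -0.48 to 1.10 for Lox and -0.98 to 0.20 for P4ha2.

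The CM libraries varied more than the controls for most members. The coefficient of variation was larger in CM than in control medium for 9 of 10 members in CD26- NFs (all but Loxl1) and for 10 of 10 in CD26+ NFs, with 6 libraries in each CM group and 3 in each control group. Where it was larger, the gap ran from 39.4% against 2.84% for Lox in CD26- NFs to 10.4% against 8.19% for P4ha1 in CD26+ NFs. The 6 libraries of a CM group came from 6 lines. The share of all tested genes with a larger coefficient in CM was not computed, so these counts describe the members only. The lines that gave the CM were then compared. In a model of cell type and line over the 12 CM libraries, 4 of 10 members differed among the 6 lines at an FDR under 0.05 by edgeR, against 6.56% of 13344 tested genes. These were Plod3 (FDR 0.00272), Lox (FDR 0.0109), P4ha2 (FDR 0.0144) and P4ha1 (FDR 0.0167). Plod2 (FDR 0.0526) and Loxl2 (FDR 0.0528) fell just short, and Plod1 (0.123), Loxl4 (0.16), Loxl3 (0.172) and Loxl1 (0.964) did not pass.

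The model takes disagreement between the cell types over a line as error, so a called member follows the lines similarly in both by construction, and the values are given as a description. Lox in CD26- NFs had 1442 CPM with CM of line 10-SJK-221, 1597 with 13-MCB-90, 2042 with 13-MCB-17, 2835 with 13-MCB-44, 3230 with 18-MCB-12 and 3962 with 13-MCB-138. In CD26+ NFs, Lox had 4039, 4630, 4928, 5867, 8158 and 7093 CPM with the same lines in the same order. Only the last pair of lines changed places. Plod3 had 218, 203, 233, 256, 275 and 319 CPM in CD26- NFs with these lines and 331, 337, 367, 413, 451 and 544 CPM in CD26+ NFs. P4ha2 had 137, 144, 192, 222, 285 and 274 CPM in CD26- NFs and 428, 445, 531, 590, 674 and 593 CPM in CD26+ NFs. P4ha1 had 247, 244, 318, 295, 333 and 345 CPM in CD26- NFs and 470, 466, 549, 548, 599 and 581 CPM in CD26+ NFs. Lines 10-SJK-221 and 13-MCB-90 gave the lowest levels in both cell types for 7 of 10 members (Lox, Loxl2, Plod1, Plod2, Plod3, P4ha1 and P4ha2), as they did for 2.26% of tested genes. Lines 18-MCB-12 and 13-MCB-138 gave the highest levels in both cell types for 4 members (Lox, Plod3, P4ha1 and P4ha2), as for 3.25% of tested genes. These lines were picked after their values were seen, so the counts are a description. For Loxl4, 13-MCB-17 and 13-MCB-138 gave the highest levels in both cell types (60.9 and 60.4 CPM in CD26-, 61.4 and 77.5 CPM in CD26+ NFs). Line 13-MCB-138 gave the highest Loxl1 level in CD26- NFs (277 CPM) and the lowest in CD26+ NFs (406 CPM).

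**Figure D3:**
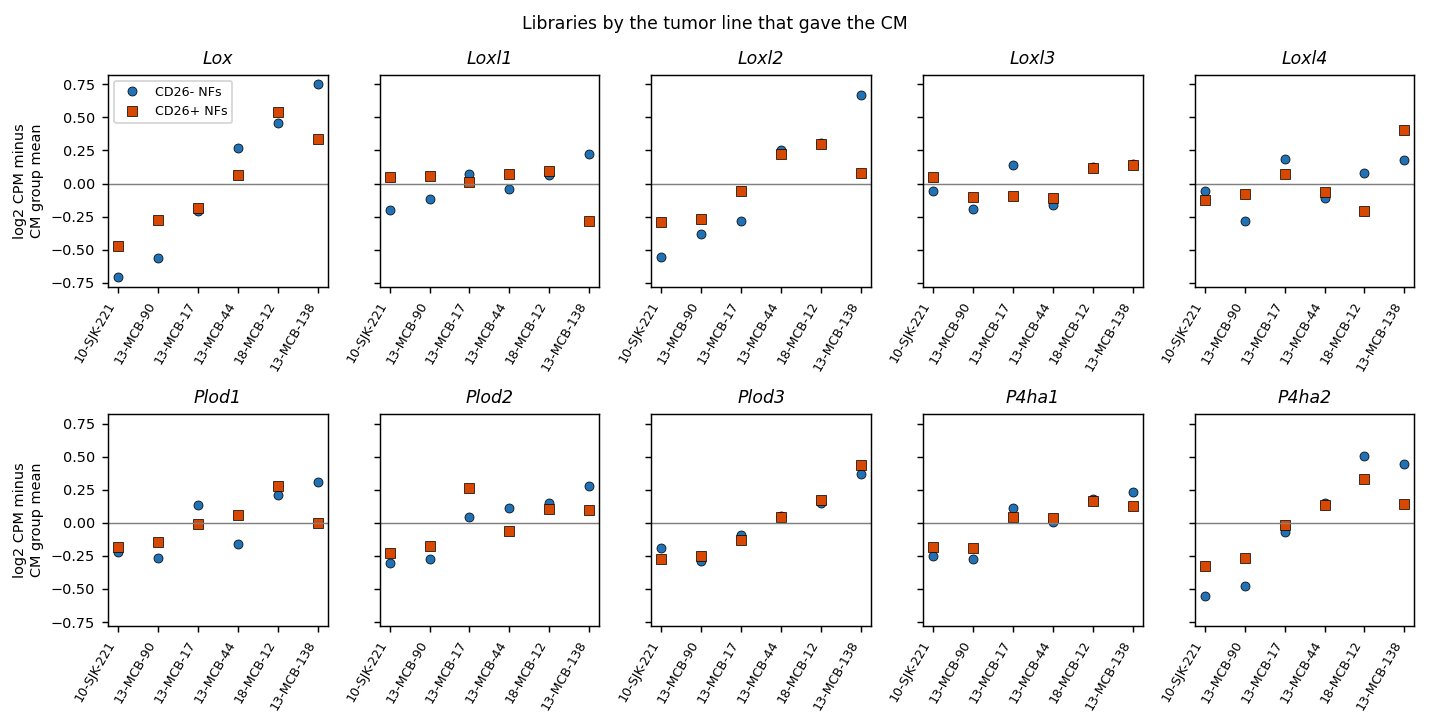
Log2 CPM of each CM library minus the mean of its CM group (vertical axis) by the tumor line that gave the CM (horizontal axis), for CD26- (circles) and CD26+ NFs (squares). Lox rises from -0.71 to 0.75 across the lines in CD26- NFs and from -0.48 to 0.54 in CD26+ NFs, whereas Loxl1 stays between -0.28 and 0.22.

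The line calls changed with the libraries used. With 10-SJK-221 or 13-MCB-90 left out, 3 members passed in edgeR, against 4.63% and 3.9% of all tested genes. Without CD26- CM replicate 9 or CD26+ CM replicate 18, both of line 13-MCB-138, 7 members passed, against 15.3% and 10.6% of all tested genes, and DESeq2 also called 7, against 10.3%. Upper-quartile scaling and limma voom called 6, adding Loxl2 and Plod2, against 7.03% and 7.61%. P4ha1 did not pass without CM replicate 5, 6, 8, 15 or 17 (FDR 0.0545 to 0.0715), and Plod2 passed without CM replicate 4 (FDR 0.0419). The summed fibroblast markers, which include Col1a1, Col1a2 and Col3a1, followed the lines too, from 9816 CPM with 10-SJK-221 to 21490 CPM with 13-MCB-138 in CD26- NFs and from 29200 to 52140 CPM with the same lines in CD26+ NFs. The summed pericyte and smooth muscle markers were also lowest with 10-SJK-221 (147 CPM in CD26- and 92.4 CPM in CD26+ NFs) and highest with 13-MCB-138 (376 and 197 CPM). The part of either list in the line differences was not tested. Each line has 1 culture of each cell type, so a line cannot be told apart from the CM batch it gave.

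The wider machinery of collagen assembly was described by lists beside the members. In control medium, 12 of 13 genes of collagen folding and export were higher in CD26+ NFs and none was lower, by edgeR, DESeq2 and limma voom, with 1 lower at an unadjusted p under 0.05 and a median log2 fold change of 0.71. Serpinh1, the collagen chaperone HSP47, reached 1229 ± 105 CPM (SD, n = 3) in CD26- controls against 2960 ± 208 CPM in CD26+ controls (log2 fold change 1.27, FDR 1.49e-06). Of 11 other collagen modifying enzymes, 8 were higher and 1 was lower. P3h3, which acts in a complex with lysyl hydroxylase 1, had 51.7 ± 3.41 against 155 ± 11.1 CPM (log2 fold change 1.58, FDR 5.53e-09), and Crtap, a partner in prolyl 3-hydroxylation, had 82.9 ± 3.65 against 182 ± 9.04 CPM (log2 fold change 1.14, FDR 1.83e-07). The substrates were higher too, with 9 of 11 fibrillar collagen chains higher and none lower by any of these tests, also at an unadjusted p under 0.05. Col1a2 had 4749 ± 264 CPM against 16877 ± 1939 CPM (log2 fold change 1.83, FDR 3.03e-05). Of 13 elastin and crosslinking partners, 10 were higher and none was lower by any of these tests, among them Efemp2 (fibulin-4, which brings Lox to elastin fibers) at 417 ± 22.7 against 1046 ± 59.9 CPM (log2 fold change 1.33, FDR 1.01e-06). Procollagen processing was mixed, with 4 of 7 genes higher, such as the N-proteinase Adamts2 (log2 fold change 1.89, FDR 2.3e-07), and Tll1, a tolloid protease, lower (log2 fold change -2.10, FDR 1.07e-07).

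Genes that supply the cofactors did not follow one direction. Of 5 tested, 2 were higher and 2 were lower in CD26+ control NFs. The copper importer Slc31a1 had 96.7 ± 3.47 against 113 ± 6.44 CPM (log2 fold change 0.23, FDR 0.0291), and the copper chaperone Atox1 had 68.1 ± 1.69 against 50.2 ± 3.07 CPM (log2 fold change -0.44, FDR 0.000302). Among 16 known targets of oxygen sensing, 6 were higher and 5 lower, and among 12 TGF-beta targets, 2 were higher and 4 lower. The part of either pathway in the levels of the members was not tested.

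The same lists were followed in tumor CM. The oxygen-sensing targets, a group to which P4ha1, P4ha2, Plod2 and Lox are often added in the field, rose in 7 of 16 genes and fell in 1 in CD26- NFs, and rose in 11 and fell in 2 in CD26+ NFs. Over all tested genes, CM left 7.88% higher and 7.28% lower in CD26- NFs against 15.2% higher and 13.4% lower in CD26+ NFs. The other list counts in CM stand against the same shares. Adm, the adrenomedullin gene, rose from 19.2 ± 3.63 to 95.05 ± 22.5 CPM in CD26- NFs (FDR 0.00142, log2 fold change 2.31) and from 8.68 ± 1.19 to 138 ± 65.1 CPM in CD26+ NFs (FDR 6.79e-06, log2 fold change 3.99). Egln3, an oxygen sensor that is itself induced by low oxygen, rose in both (log2 fold changes 1.38 and 2.71, FDR 0.00259 and 3.32e-06). None of P4ha1, P4ha2, Plod2 and Lox rose in either cell type. The part of oxygen sensing in the CM results of the members was not tested. In the difference between the CM effects without the line as a block, 4 oxygen-sensing targets were positive and none was negative. None was negative either by DESeq2 (6 positive), limma voom (2 positive) or at an unadjusted p under 0.05 (7 positive).

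Collagen chains and crosslinking partners were also followed in CM. In CD26+ NFs, 7 of 11 fibrillar chains fell and 2 rose, and 7 of 13 elastin and crosslinking partners fell and 2 rose. In CD26- NFs the same lists had 2 and 3 genes lower and 1 higher each. Col3a1 had 2843 ± 129 CPM in control and 1234 ± 621 CPM in CM CD26- libraries (log2 fold change -1.20, FDR 0.0447) and 23468 ± 3484 against 6633 ± 3676 CPM in CD26+ libraries (log2 fold change -1.82, FDR 0.00203). Postn, which encodes periostin, a matricellular protein that promotes Lox activation, fell in both cell types (log2 fold changes -1.29 and -1.65, FDR 0.0195 and 0.0019). In the test of the difference without the line as a block, 1 fibrillar chain was positive and 1 negative. Of 13 elastin and crosslinking partners none passed by edgeR, DESeq2 or limma voom, and 1 did at an unadjusted p under 0.05. None of the 13 folding and export genes passed in CD26- NFs by edgeR or limma voom, although DESeq2 called 1 lower and 1 higher and 3 lower genes had an unadjusted p under 0.05. In CD26+ NFs, 6 fell and 1 rose. Without the line as a block, the difference between the CM effects passed for none of the 13 by edgeR, DESeq2 or limma voom. It passed for 1 at an unadjusted p under 0.05. The lists were not counted with the block. Of the other modifying enzymes, Pxdn, the peroxidase that crosslinks collagen IV, fell in CD26- NFs (log2 fold change -0.37, FDR 0.00218) and rose in CD26+ NFs (0.20, FDR 0.0451), with a difference between the CM effects of 0.57 (FDR 0.00427). P3h1, P3h4 and Colgalt1 fell in CD26+ NFs with log2 fold changes of -0.45, -0.36 and -0.26. TGF-beta targets fell in 4 of 12 genes and rose in none in CD26- NFs by edgeR, and none rose at an unadjusted p under 0.05, by DESeq2 or by limma voom. In CD26+ NFs 4 fell and 2 rose. Cthrc1 fell in both (log2 fold changes -1.29 and -1.63, FDR 0.00168 and 5.59e-05).

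**Figure D4:**
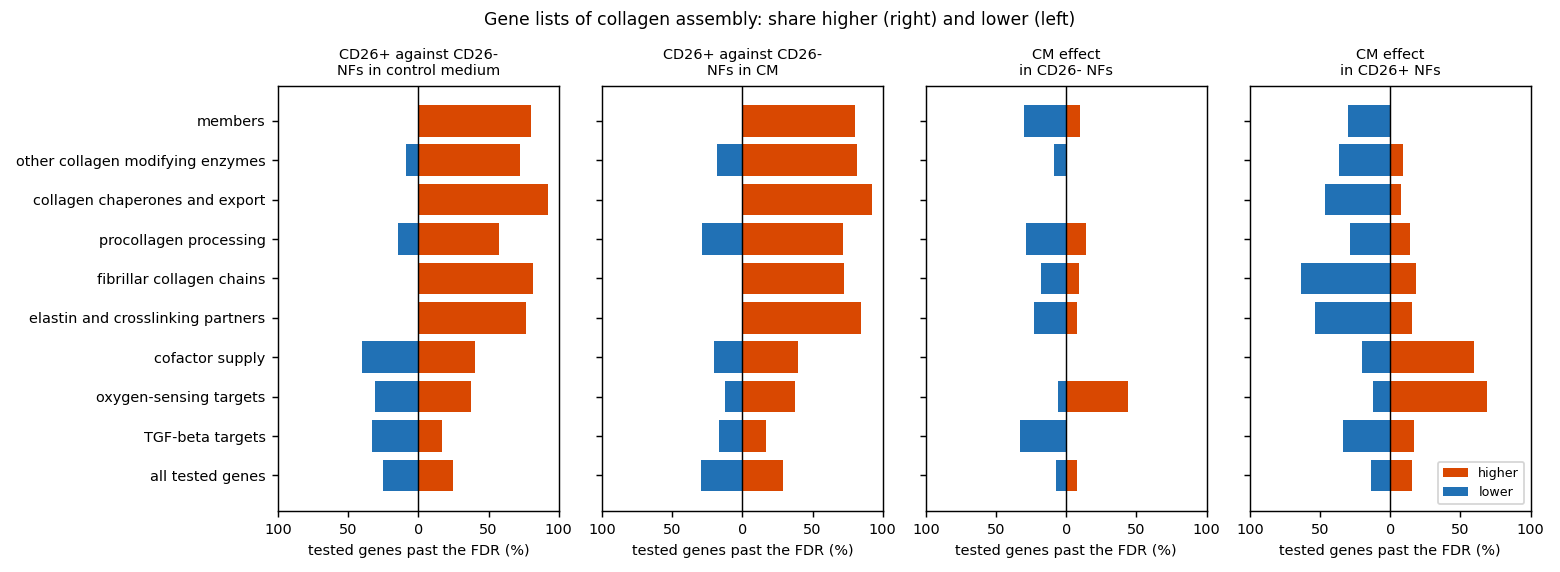
Share of tested genes past the FDR (horizontal axis, percent) that were higher (right of 0) or lower (left of 0) in 4 comparisons (panels), for the 10 enzymes, 8 lists of collagen assembly and regulation, and all tested genes (rows). Between the cell types in control medium 8 of 10 enzymes were higher against 25% of all genes, whereas the CM panels show lower calls for 3 enzymes in each cell type.

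The genes whose pattern over the 18 libraries was most like that of the 3 members with the widest range of group means were listed as a description. For P4ha2 they were Sar1a, a GTPase of COPII vesicles (Pearson r 0.99), Ckap4 (0.99) and Tmem263 (0.99), and the correlations of deviations from the group means were 0.95, 0.93 and 0.94. For Lox they were Tent5a (r 0.98, 0.95 within groups), the Golgi protein gene Gorasp2 (0.98 and 0.93) and Adamts12 (0.98 and 0.96). Loxl1 was matched by Gaa, Col16a1 and Serpina3n (r 0.99 each), and here the correlations within groups were lower at 0.80, 0.72 and 0.72. All points share the cell type, the medium and, within CM, the line.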

How the data were processed

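RNA was sequenced in 18 stranded mRNA libraries. The authors deposited 1 table with the raw counts per gene of all libraries. The submitters' processing notes name HISAT2 2.1.0, HTSeq and GRCm38, and the annotation release and strand setting are not given in the sources used here. Samples were grouped by their labels. The 1 row without a gene held 0 counts.

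Counts were filtered with filterByExpr, scaled by TMM and tested with the quasi-likelihood method of edgeR 4.0.16 in R 4.3.3, in one model of 4 groups (14 residual degrees of freedom) with Benjamini-Hochberg adjustment over 14273 genes. The spread is thus shared between groups. The lines were compared in the 12 CM libraries by an additive model of cell type and line over 13344 genes (5 residual degrees of freedom). Genes were called at an adjusted p under 0.05, and the log2 limit of 2 of the study was applied as well. CPM are counts per 1000000 of the TMM-scaled library. Levels per kilobase used the summed exons of the annotation. The script was tested on simulated data. Total counts per library limit precision, and the biological coefficient of variation was 0.117. No replicates agreed within sampling noise (lowest chi-square per degree of freedom 3.22).

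Libraries that received CM of the same line deviated together, with a correlation of residuals of 0.247 to 0.406 in all 6 pairs against -0.315 to 0.242 between lines, so the line pairs the cell types in CM. The pairing comes from the line named in the labels. Alternatives were RLE and upper-quartile scaling, DESeq2 1.42.0, limma voom (limma 3.58.1), other filters and thresholds, an epithelial covariate, the line as a block and leaving out each library.

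All 10 members were named, and from each further list up to 3 genes with the smallest p past the FDR in a comparison could be named. The lists were other collagen modifying enzymes, chaperones and export, procollagen processing, fibrillar chains, elastin and crosslinking partners, cofactor supply, oxygen-sensing and TGF-beta targets, and cell type markers. Members and lists were chosen with earlier results of these data known. Part of the genotype of the mice is not reported here.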

Additional observations from a re-analysis of the deposited data

Results flagged for a closer look

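Loxl1 in CD26+ NFs with CM of line 13-MCB-138 (replicate 18) had 406 CPM, while the other 5 CD26+ CM libraries lay between 499 and 526 CPM. The gap to its nearest neighbor exceeded the 95% critical value of Dixon's test for 6 samples, which chance passes in about 1 in 20 groups. Of 20 such groups tested (10 members in the CM libraries of each cell type), this was the 1 past it. In CD26- NFs the same line gave the highest Loxl1 level, 277 CPM. Without this library, the CM effect on Loxl1 in CD26+ NFs had a log2 fold change of 0.24 (FDR 0.0395, edgeR) in place of 0.20 (FDR 0.144).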

How the results depend on the processing

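Between the cell types, 8 members stayed called under RLE and upper-quartile scaling, DESeq2 and limma voom in both media. Of all genes, these fits called 49.8% to 50.5% in control medium and 57.9% to 58.7% in CM. Leaving out 1 library gave 7 to 9 members in control medium and 8 in CM. The share of all genes was then 42.1% to 52.4% in control medium and 55.3% to 59.3% in CM. A fit of the groups compared alone gave 10 in control medium (9 higher, 1 lower). A log2 limit of 1 left 3 in control medium and 5 in CM (17% and 14.3% of all genes), a limit of 2 left 0 in each, and the epithelial covariate left 2 in each. For CM in CD26- NFs (4 members), an FDR under 0.01 left 1 (5.82% of all genes), log2 limits of 1 and 2 left 0 (3.53% and 0.904%), the line as a block gave 8, and leaving out 1 library gave 1 to 7 (5.69% to 19.3%). For CM in CD26+ NFs (3 members), log2 limits of 1 and 2 left 0 (6.68% and 2.01%), the block gave 6 and leaving out 1 library gave 2 to 5 (19% to 34.9%). For the difference between the CM effects (0 members), DESeq2 and limma voom gave 1 each and the block gave 4. The block without line 13-MCB-138 gave 6 (25.7% of all genes, against 7.53%). Leaving out 1 library gave 0 to 1 (2.33% to 16.4% of all genes). For the lines (4 members), DESeq2 gave 7 and upper-quartile scaling and limma voom gave 6 each. No filter on low counts gave 8 (8.33% of all genes), and an FDR under 0.01 gave 1 (1.47%). Leaving out 1 library gave 3 to 7 (2.67% to 15.3%). Leaving out both 10-SJK-221 and 13-MCB-90 gave 0, against 1.54% of all tested genes. These lines were removed because they were lowest for the members, and the fit has 3 residual degrees of freedom, so weaker line differences were built in. The blocks within a cell type, the block without a line and the left-out lines were chosen after seeing the data. The block changed no call between the cell types in CM.

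Directions turned only for values near 0 or under the covariate. The log2 fold change of Plod1 for CM in CD26- NFs was 0.0027 and became -0.0063 with RLE scaling, -0.0062 with DESeq2, -0.0145 with limma voom, -0.0068 without the filter, -0.0550 with the covariate, -0.0115 with the block and -0.0631 to 0.0541 without 1 library. P4ha2 for CM in CD26- NFs was -0.0248 without replicate 6, -0.0068 without replicate 9 and up to 0.1819 without another library. With the covariate, Loxl3 in CD26+ against CD26- controls was -0.1185 and Plod2 in CM was -0.0448, and Plod2 in CM was -0.0346 to 0.0850 without 1 library. The Plod1 difference between the CM effects was 0.0201 with the block without line 13-MCB-138 and -0.1227 to 0.0151 without 1 library. The causes of these shifts were not tested. The 3 controls per cell type and 1 culture per line limit what small differences could be detected.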
